A study of Mus musculus with 18 samples.

Results

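The genes of cystine uptake and glutathione synthesis were followed across the conditions of an RNA-seq experiment in RAW264.7 cells, a mouse macrophage line. The group held 7 genes of the 56748 listed, *Slc7a11*, *Slc3a2*, *Gclc*, *Gclm*, *Gss*, *Gsr* and *Chac1*, and each was found by its exact symbol, which matched 1 row apiece. The line was exposed to TBHQ (tert-butylhydroquinone), a phenolic food antioxidant that is widely used to activate the transcription factor Nrf2, and to a bacterial or a viral type of stimulus. There were 6 groups of 3 libraries each, and poly(A)-selected RNA was sequenced. Control cells received no agent. TBHQ cells received 5 µM TBHQ for 4 h. LPS cells received 0.1 µg/mL lipopolysaccharide for 12 h, and PIC cells received 20 µg/mL poly I:C, a double-stranded RNA mimic, for 12 h. LPS + TBHQ and PIC + TBHQ cells were pre-treated for 4 h at the same TBHQ dose and then given LPS or PIC as above for 12 h. All groups were of the same line, so the results hold for 1 line only.

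Glutathione is the main small thiol of animal cells and is made from glutamate, cysteine and glycine. Many cells take up cysteine in its oxidised form, cystine, in exchange for glutamate through system xc-, and macrophages are known to raise this transport on activation. Glutamate cysteine ligase then joins glutamate to cysteine in the rate-limiting step, glutathione synthetase adds glycine, glutathione reductase returns oxidised glutathione to its reduced form, and enzymes such as Chac1 break glutathione down.

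Between 14423390 and 18851626 counts per library were assigned to genes, with a median of 15742337. At this depth 3 counts, taken as the smallest signal, stood for 0.159 to 0.208 CPM (library-scaled counts), which covers counting error only. All 7 genes had at least 226 counts in every library and passed the filter on low counts, as did 13691 genes in all. Levels are given as FPKM, fragment counts scaled by gene length and library size, for libraries 1, 2 and 3 of a group in that order. Changes are log2 fold changes (log2FC) of counts from edgeR's quasi-likelihood test with their standard error (SE), and FDR is the p-value corrected for testing 13691 genes (Benjamini-Hochberg). A gene was called higher or lower at an FDR below 0.05. The study describes the 3 libraries of a group as biological replicates, and the p-values measure the spread between these libraries. TBHQ was dissolved in DMSO, control cells received medium only, and DMSO in the LPS and PIC groups is not stated. So TBHQ and its solvent cannot be told apart against the control, and may not be separable against LPS or PIC.

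The libraries had the markers of their label. Of 10 macrophage markers, 9 had a mean FPKM of at least 1, the summed FPKM of the list was 5728.0 to 6718.7 per library, and *Lyz2* was the most abundant at 3398.5 to 4646.9. The summed FPKM stayed at or below 0.122 for 5 fibroblast markers, 0.0279 for 5 epithelial markers, 0.0941 for 5 T cell markers and 0.338 for 4 B cell markers, and 4 dendritic cell markers summed to 0.337 to 1.49. In bulk RNA a change in the level per cell and a change in the share of cells that express a gene cannot be told apart.

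After TBHQ alone, 4 of the 7 genes were higher than in the control, while 14.2% of all tested genes were, and 1 was lower, while 14.8% of all genes were. With LPS 5 of 7 were higher (24.0% of all genes) and 0 lower (24.1%). With PIC 5 of 7 were likewise higher (28.6%) and 0 lower (30.1%). In both pre-treated groups all 7 were higher than in the control and 0 lower, against 21.2% of all genes higher and 22.5% lower in LPS + TBHQ and 26.4% higher and 26.0% lower in PIC + TBHQ. These 5 comparisons share the control libraries and are not independent of each other.

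The direct comparisons asked what the pre-treatment changed in stimulated cells. LPS + TBHQ exceeded LPS in 6 of 7 genes (11.7% of all genes higher) and was lower in 0 (12.2%). PIC + TBHQ exceeded PIC in 6 of 7 (15.8%) and was lower in 0 (15.5%). PIC differed from LPS in *Slc7a11*, the 1 gene that was higher (14.9%), and *Gclm*, the 1 that was lower (12.8%). The median log2FC of the 7 genes was 0.98 after TBHQ alone, 0.66 with LPS, 0.64 with PIC, 0.39 for LPS + TBHQ against LPS and 0.35 for PIC + TBHQ against PIC. The median over all genes tested lay between -0.01 and 0.01 in each of these comparisons. Where edgeR called 0 genes lower, DESeq2 also called 0, and an unadjusted edgeR p below 0.05 was reached by 0 genes, except for 1, *Chac1*, in LPS + TBHQ against LPS.

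**Figure D1:**
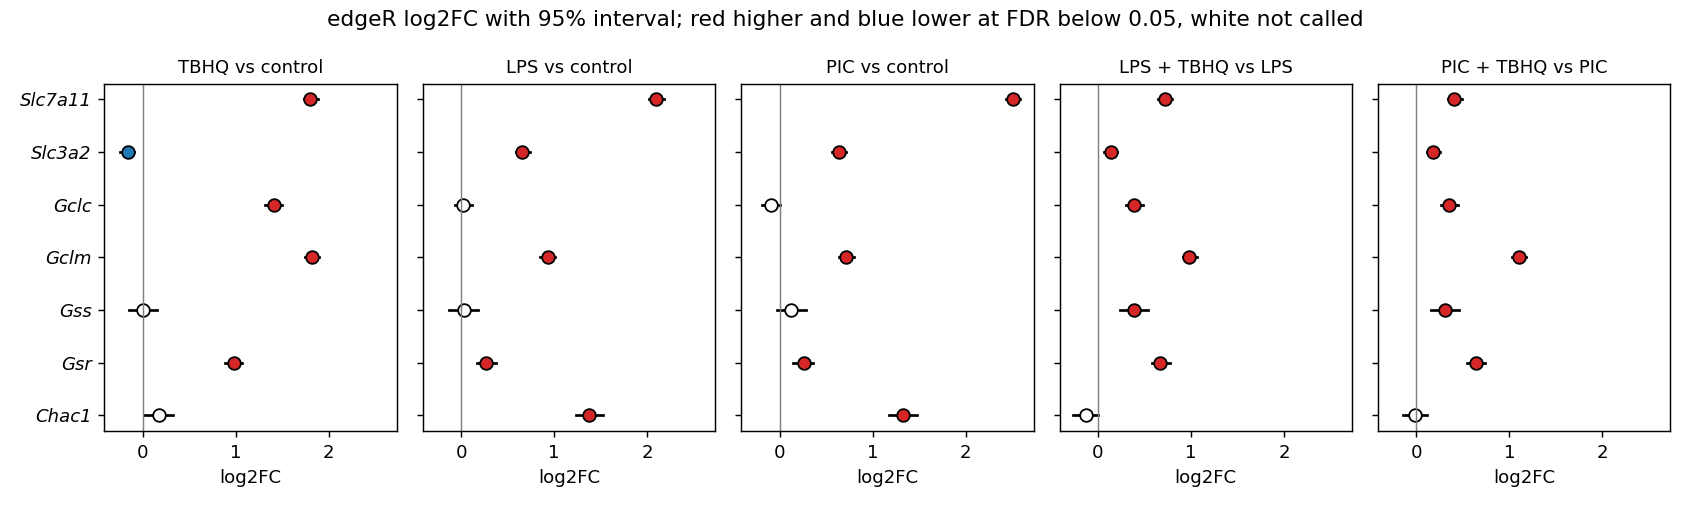
Log2FC (x axis) of the 7 genes (y axis) in 5 comparisons, with points for the edgeR estimate, lines for the 95% interval, red for higher, blue for lower and white for not called at an FDR below 0.05. *Slc7a11* lies furthest to the right with LPS (2.10) and PIC (2.51), and *Chac1* lies beside 0 in both comparisons of pre-treated with stimulated cells (-0.13 and -0.01).

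A limit used by the study, an FDR below 0.01 with a |log2FC| above 2, was passed by *Slc7a11* alone, 1 of 7 genes. It passed with LPS, where 1.34% of all genes were higher by this rule, with PIC (2.70%), in LPS + TBHQ (0.840%) and in PIC + TBHQ (1.76%), each against the control. After TBHQ alone 0 of the 7 genes were higher by this rule in edgeR (0.0803% of all genes, 11 in number), and 0 were lower (15 of all genes). Without the fold limit, at an FDR below 0.05, 4 were higher in edgeR and 4 in DESeq2, and 5 were at an unadjusted edgeR p below 0.05.

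The scaling of the libraries bears on small changes. When libraries were scaled by their total size and not by TMM factors, the median log2FC of all genes moved to -0.232 for PIC, -0.150 for PIC + TBHQ, both against the control, and -0.138 for PIC against LPS. By that scaling the share of higher genes among the called moved from 49.8% to 35.0% with LPS, from 48.7% to 26.4% with PIC, from 48.4% to 36.1% in LPS + TBHQ and from 50.4% to 30.0% in PIC + TBHQ. It moved from 48.9% to 59.5% for LPS + TBHQ against LPS, from 50.6% to 70.3% for PIC + TBHQ against PIC from 53.7% to 18.4% for PIC against LPS and, for the difference of the TBHQ effect between PIC and LPS, from 113 higher and 138 lower genes to 235 and 74. For PIC against LPS it also called *Slc3a2* (log2FC -0.16), *Gclc* (-0.24), *Gsr* (-0.14) and *Chac1* (-0.19) lower. Changes of the 7 genes are given on the TMM scale, on which the median gene lies near 0.

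*Slc7a11* encodes xCT, the transport subunit of system xc- that exchanges cystine for glutamate. The gene (ENSMUSG00000027737) is listed at chr3:49846975-50398063 on the minus strand. Its FPKM was 9.56, 9.24 and 9.70 in the control and 35.4, 32.2 and 32.1 after TBHQ alone. With LPS it was 41.3, 42.0 and 39.4, and with PIC 56.9, 53.3 and 54.6. It reached 68.8, 66.8 and 67.3 in LPS + TBHQ and 71.8, 72.9 and 73.2 in PIC + TBHQ. By FPKM the 6 groups formed a ladder without any overlap, with the control lowest, then TBHQ, LPS, PIC, LPS + TBHQ and PIC + TBHQ, and the highest control library lay below every library of the other groups. The top step depends on the scaling: LPS + TBHQ and PIC + TBHQ overlapped when counts were divided by library totals, and these groups were not tested against each other.

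The rise over the control was 3.49-fold after TBHQ (log2FC 1.80 ± 0.038 SE, edgeR FDR = 7.8e-29), 4.29-fold with LPS (2.10 ± 0.039, FDR = 1.3e-31) and 5.72-fold with PIC (2.51 ± 0.039, FDR = 2.1e-34). Pre-treatment raised *Slc7a11* by a further 1.65-fold in LPS cells (log2FC 0.72 ± 0.036, edgeR FDR = 3.7e-18). In PIC cells the further rise was 1.33-fold (log2FC 0.41 ± 0.035, edgeR FDR = 9.9e-12). The difference between these 2 steps was tested directly and was -0.31 ± 0.050 (95% interval -0.41 to -0.21, edgeR FDR = 2.0e-04). *Slc7a11* was the 1 gene of the 7 for which that difference passed, in the lower direction (1.01% of all genes), and 0 of 7 passed in the higher direction (0.825%). In DESeq2 0 genes were also higher, while at an unadjusted edgeR p below 0.05 1 gene was, *Gclm*. Between the stimuli themselves, PIC exceeded LPS by 1.33-fold (log2FC 0.42 ± 0.036, edgeR FDR = 1.6e-11).

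*Slc3a2* encodes the heavy chain 4F2hc (CD98), which carries xCT and several other amino acid transporters to the cell surface. The gene (ENSMUSG00000010095) is listed at chr19:8684246-8700733 on the minus strand. Its FPKM was 104.0, 109.2 and 106.6 in the control, and it was lower after TBHQ alone at 92.6, 95.8 and 97.4. LPS libraries had 176.2, 157.3 and 175.8 and PIC libraries 163.9, 171.5 and 167.8. In LPS + TBHQ the values were 188.0, 184.6 and 188.7, and in PIC + TBHQ 188.9, 190.8 and 185.4. The 2 stimuli overlapped with each other, as did both pre-treated groups, whereas each pre-treated group lay above every library of its stimulus.

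After TBHQ alone *Slc3a2* fell to 0.892 of the control (log2FC -0.16 ± 0.036, edgeR FDR = 5.7e-04), the reverse of the direction of *Slc7a11*. It rose 1.58-fold with LPS (log2FC 0.66 ± 0.036, edgeR FDR = 9.5e-18) and 1.56-fold with PIC (0.64 ± 0.036, FDR = 1.6e-17). Pre-treatment added 1.10-fold in LPS cells (log2FC 0.14 ± 0.035, edgeR FDR = 0.00313) and 1.13-fold in PIC cells (0.18 ± 0.035, FDR = 1.4e-04). The first of these rested on the lowest LPS library: without LPS replicate 2 the log2FC was 0.09 and the call was lost. PIC and LPS did not pass the test against each other (log2FC -0.03, 95% interval -0.10 to 0.05).

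The ratio of *Slc7a11* to *Slc3a2* was taken from FPKM within each library. It was 0.0919, 0.0846 and 0.0909 in the control and 0.382, 0.336 and 0.329 after TBHQ alone. LPS libraries had ratios of 0.234, 0.267 and 0.224 and PIC libraries 0.347, 0.311 and 0.325, while those of LPS + TBHQ were 0.366, 0.362 and 0.357 and those of PIC + TBHQ 0.380, 0.382 and 0.395. Thus *Slc7a11* mRNA was below that of *Slc3a2* in every library, and the ratio was lowest in the control and next lowest with LPS. TBHQ alone overlapped with PIC and with both pre-treated groups. Ratios are given as a description and were not tested.

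**Figure D2:**
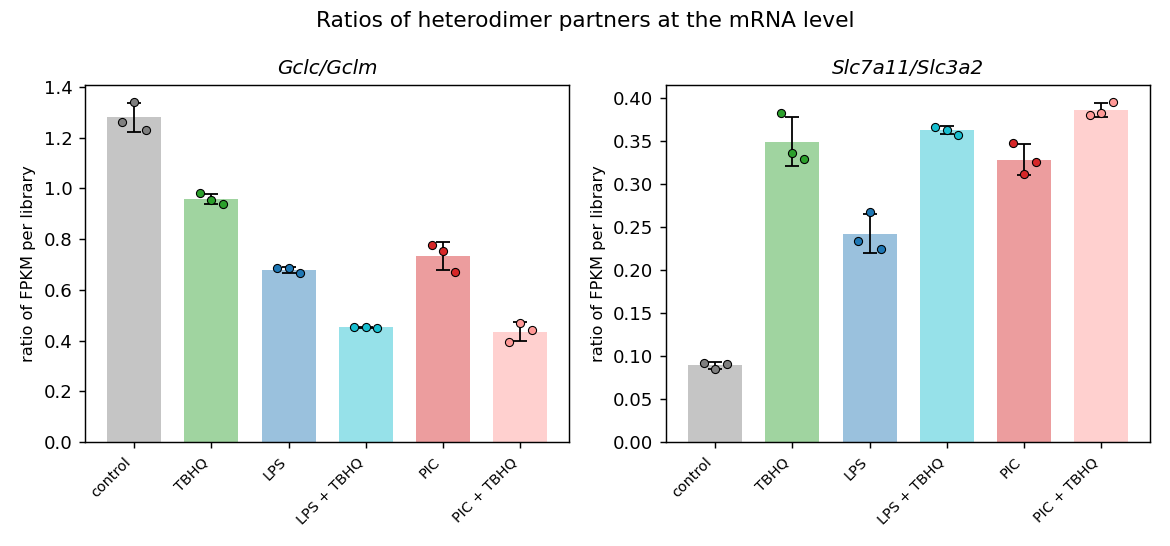
Ratio of FPKM per library (y axis) for *Gclc* to *Gclm* and for *Slc7a11* to *Slc3a2* in the 6 groups (x axis), with points for libraries, bars for means and error bars for the SD of 3 libraries. The *Gclc* to *Gclm* mean goes from 1.28 in the control to 0.452 in LPS + TBHQ and 0.435 in PIC + TBHQ, while the other ratio goes from 0.0892 to 0.362 and 0.386.

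*Gclc* encodes the catalytic subunit of glutamate cysteine ligase. The gene (ENSMUSG00000032350) is listed at chr9:77661817-77701767 on the plus strand. Control libraries had an FPKM of 22.1, 23.6 and 22.9, and TBHQ libraries had 60.5, 61.4 and 60.4. The values were 23.5, 23.2 and 23.4 with LPS and 22.6, 21.9 and 20.8 with PIC. They were 29.9, 30.7 and 31.6 in LPS + TBHQ and 25.4, 28.6 and 28.7 in PIC + TBHQ. TBHQ alone stood far above all other groups, both stimuli overlapped with the control, and the pre-treated groups lay between, each above every library of its stimulus.

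*Gclc* rose 2.65-fold after TBHQ alone (log2FC 1.41 ± 0.044, edgeR FDR = 9.6e-24). With LPS the log2FC was 0.02 (95% interval -0.07 to 0.12, edgeR FDR = 0.725), and with PIC it was -0.09 (-0.19 to 0.00, FDR = 0.0982). With total library size as the scale, *Gclc* was called lower with PIC (log2FC -0.31), a size to be read against the shift of -0.232 in the median of all genes. Pre-treatment raised *Gclc* 1.31-fold in LPS cells (log2FC 0.39 ± 0.046, edgeR FDR = 1.5e-08) and 1.28-fold in PIC cells (0.35 ± 0.046, FDR = 1.5e-07). Cells given TBHQ alone were collected after 4 h, and pre-treated cells after a further 12 h with the stimulus. So the lower *Gclc* level of pre-treated than of TBHQ cells was not tested, and time since TBHQ was added and presence of a stimulus cannot be told apart in it.

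*Gclm* encodes the modifier subunit, which binds the catalytic subunit and makes the enzyme more active. The gene (ENSMUSG00000028124) is listed at chr3:122039206-122064381 on the plus strand. Its FPKM was 17.6, 17.6 and 18.6 in the control and 61.7, 64.4 and 64.2 after TBHQ alone. It was 34.2, 33.8 and 35.1 with LPS and 29.2, 29.1 and 31.0 with PIC. It was 66.1, 67.6 and 70.3 in LPS + TBHQ and 64.4, 61.3 and 64.8 in PIC + TBHQ. Each stimulus lay above the control and below all 3 groups with TBHQ, and of those 3 groups TBHQ alone overlapped with PIC + TBHQ.

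The fold over the control was 3.53 after TBHQ (log2FC 1.82 ± 0.038, edgeR FDR = 7.8e-29), 1.91 with LPS (0.93 ± 0.039, FDR = 6.2e-21) and 1.64 with PIC (0.72 ± 0.039, FDR = 7.8e-18). Unlike *Slc7a11*, *Gclm* was lower with PIC than with LPS (log2FC -0.22 ± 0.038, edgeR FDR = 2.9e-05). Pre-treatment raised it 1.98-fold in LPS cells (log2FC 0.98 ± 0.037, edgeR FDR = 1.6e-21) and 2.15-fold in PIC cells (1.10 ± 0.037, FDR = 1.7e-22). The difference between these steps was 0.12 ± 0.052 and missed the threshold (95% interval 0.01 to 0.23, edgeR FDR = 0.266).

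The 2 partners of the ligase were compared as a ratio as well. The ratio of *Gclc* to *Gclm* was 1.26, 1.34 and 1.23 in control libraries and 0.980, 0.954 and 0.940 after TBHQ alone. It was 0.687, 0.685 and 0.666 with LPS and 0.775, 0.752 and 0.670 with PIC. It was 0.452, 0.455 and 0.449 in LPS + TBHQ and 0.395, 0.468 and 0.442 in PIC + TBHQ. *Gclc* exceeded *Gclm* per length in the control libraries only, the stimuli overlapped with each other, and both pre-treated groups lay below every other group while overlapping with each other. These ratios compare mRNA and give no measure of the subunits as proteins.

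*Gss* encodes glutathione synthetase, which adds glycine to the dipeptide. The gene (ENSMUSG00000027610) is listed at chr2:155405101-155434730 on the minus strand and had the lowest mean FPKM of the 7 in every group. Control libraries had 4.30, 4.26 and 4.41, TBHQ libraries 4.19, 4.08 and 4.73, LPS libraries 4.60, 3.94 and 4.73 and PIC libraries 4.63, 5.17 and 4.52. LPS + TBHQ had 5.84, 5.77 and 5.86 and PIC + TBHQ 6.08, 5.95 and 5.56. Both pre-treated groups lay above every library of the other 4 groups, PIC lay just above the control without overlap, and TBHQ and LPS overlapped with the control.

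The log2FC of *Gss* was 0.00 after TBHQ alone (95% interval -0.15 to 0.15), 0.03 with LPS (-0.13 to 0.18) and 0.12 with PIC (-0.03 to 0.28), and none of them passed. Pre-treatment raised it 1.31-fold in LPS cells (log2FC 0.39 ± 0.074, edgeR FDR = 9.2e-05) and 1.24-fold in PIC cells (0.31 ± 0.074, FDR = 0.00128). These values carry a limit. *Gss* shares 22544 bases of its span with *Acss2*, a gene for acetyl-CoA synthetase on the opposite strand that had 250 to 585 counts per library against 335 to 608 for *Gss*, and while the study describes strand-specific libraries, the deposited notes name directional and non-directional ones and do not say whether counting used the strand. *Acss2* moved with pre-treatment as well (log2FC 0.46 ± 0.080, edgeR FDR = 2.9e-05 in LPS cells, and 0.38 ± 0.086, FDR = 7.1e-04 in PIC cells), and the part of its reads in the *Gss* values was not tested. With PIC alone *Acss2* fell (log2FC -0.58 ± 0.084, edgeR FDR = 2.2e-07), where the estimate for *Gss* was 0.12.

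*Gsr* encodes glutathione reductase, which uses NADPH to recycle oxidised glutathione. The gene (ENSMUSG00000031584) is listed at chr8:34142551-34188191 on the plus strand. Its FPKM was 38.8, 34.3 and 37.9 in the control and 72.9, 71.7 and 73.9 after TBHQ alone. It was 44.3, 44.2 and 45.8 with LPS and 46.2, 46.7 and 41.3 with PIC. It was 70.8, 74.4 and 69.4 in LPS + TBHQ and 67.5, 66.3 and 73.3 in PIC + TBHQ. The libraries fell into 3 levels, with the control at the bottom, both stimuli just above it and overlapping, and all 3 groups with TBHQ at the top and overlapping.

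*Gsr* rose 1.97-fold after TBHQ alone (log2FC 0.98 ± 0.048, edgeR FDR = 7.2e-18), 1.21-fold with LPS (0.27 ± 0.050, FDR = 2.6e-05) and 1.19-fold with PIC (0.26 ± 0.050, FDR = 3.6e-05). The call with PIC was lost with total library size as the scale (log2FC 0.04). Pre-treatment raised *Gsr* 1.60-fold in LPS cells (log2FC 0.67 ± 0.048, edgeR FDR = 1.1e-13) and 1.56-fold in PIC cells (0.64 ± 0.048, FDR = 4.5e-13). The difference between these steps was -0.03 (95% interval -0.17 to 0.10).

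*Chac1* encodes a gamma-glutamylcyclotransferase that degrades reduced glutathione and is known as a target of the stress factor ATF4. The gene (ENSMUSG00000027313) is listed at chr2:119181710-119184862 on the plus strand. Its FPKM was 8.994, 8.473 and 8.495 in the control and 9.424, 9.190 and 10.572 after TBHQ alone. It was 22.266, 21.907 and 23.964 with LPS and 23.001, 21.496 and 21.536 with PIC. It was 21.002, 20.003 and 21.132 in LPS + TBHQ and 21.914, 21.496 and 21.591 in PIC + TBHQ. All libraries with a stimulus lay between 20.003 and 23.964, with or without TBHQ, and all without a stimulus lay at or below 10.572.

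*Chac1* rose 2.61-fold with LPS (log2FC 1.38 ± 0.073, edgeR FDR = 5.0e-18) and 2.51-fold with PIC (1.33 ± 0.073, FDR = 8.8e-18). After TBHQ alone its log2FC of 0.17 missed the threshold (95% interval 0.01 to 0.33, edgeR FDR = 0.116), although the libraries did not overlap, and limma on log2 FPKM called it. It was the 1 gene of the 7 for which neither direct comparison passed. The log2FC was -0.13 in LPS cells (edgeR FDR = 0.139), where the LPS + TBHQ libraries lay below the LPS libraries without overlap, and -0.01 in PIC cells (95% interval -0.14 to 0.12, FDR = 0.924). *Chac1* and *Gclc* thus had different profiles, the first higher with each stimulus and not called after TBHQ alone, the second called after TBHQ alone and with neither stimulus.

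**Figure D3:**
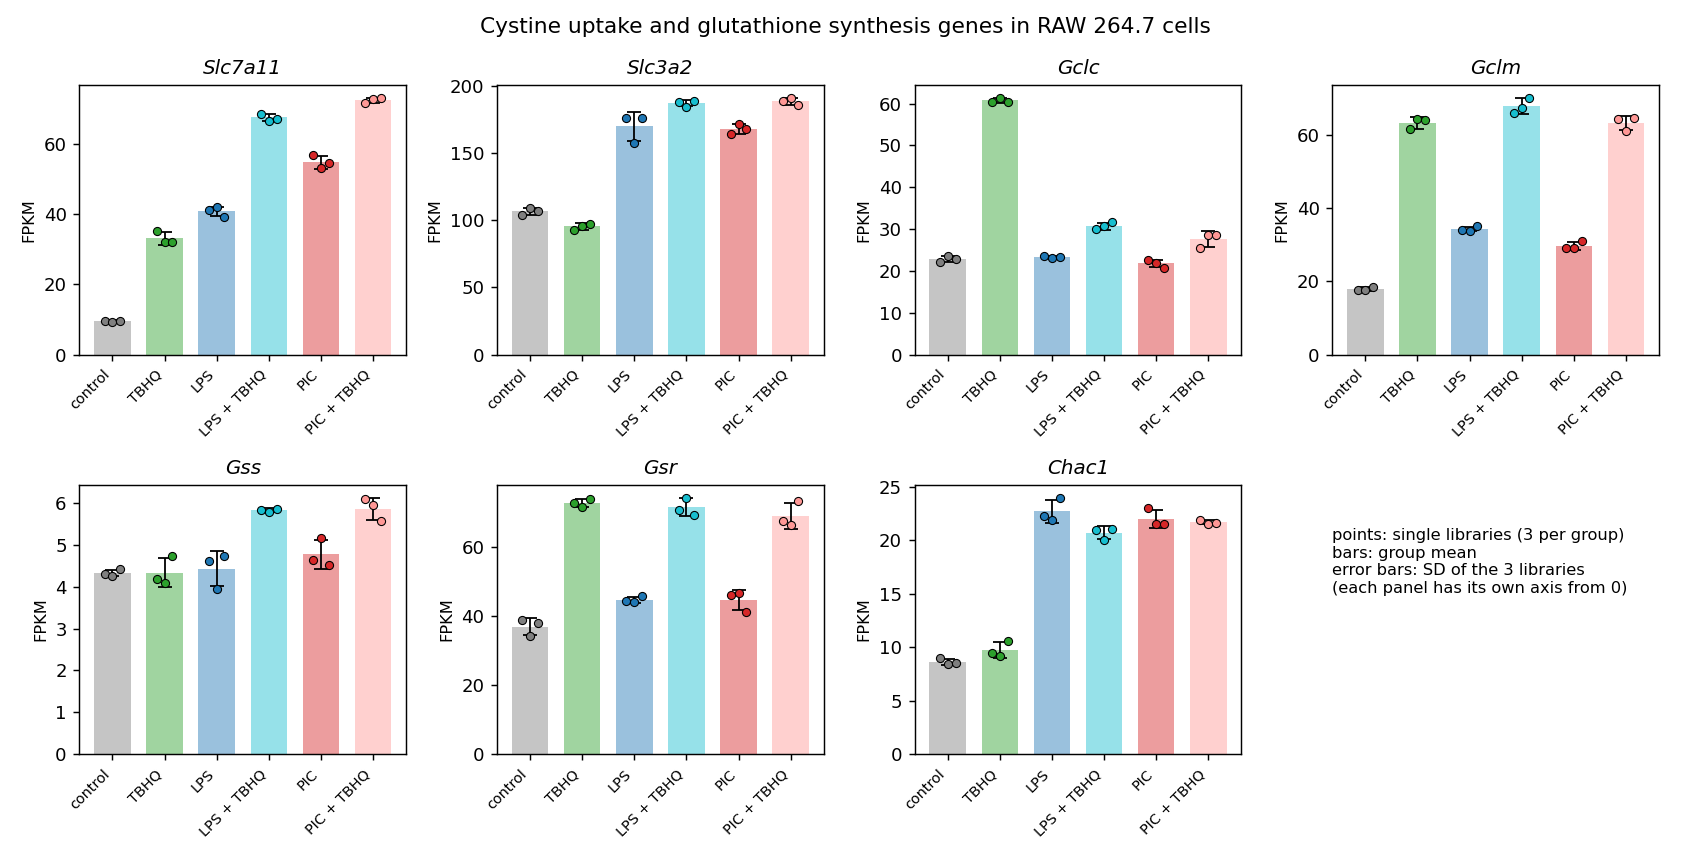
FPKM (y axis, from 0 and separate for each gene) of the 7 genes in the 6 groups (x axis), with points for libraries, bars for means and error bars for the SD of 3 libraries. *Gclc* is highest after TBHQ alone (60.8), *Slc7a11* rises from 9.50 in the control to 72.6 in PIC + TBHQ, and *Chac1* lies at 20.7 to 22.7 in all 4 stimulated groups.

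Per length, the order of the genes differed between groups. By mean FPKM the control had *Slc3a2* first (106.6 ± 2.60 SD, n = 3), then *Gsr* (37.0 ± 2.39), *Gclc* (22.9 ± 0.720), *Gclm* (17.9 ± 0.561), *Slc7a11* (9.50 ± 0.233), *Chac1* (8.65 ± 0.294) and *Gss* (4.32 ± 0.0778). In PIC + TBHQ *Slc3a2* was again first (188.4 ± 2.71), followed by *Slc7a11* (72.6 ± 0.725), *Gsr* (69.0 ± 3.77), *Gclm* (63.5 ± 1.93), *Gclc* (27.6 ± 1.86), *Chac1* (21.7 ± 0.219) and *Gss* (5.86 ± 0.266). *Slc7a11* thus went from the fifth to the second place, although its PIC + TBHQ libraries overlapped with those of *Gsr*.

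Other genes around glutathione were counted in lists. Their counts are to be read against the shares of all tested genes called higher and lower, which were 14.2% and 14.8% after TBHQ alone, 24.0% and 24.1% in LPS and 28.6% and 30.1% in PIC cells, each against the control. In the direct comparisons they were 11.7% and 12.2% in LPS cells and 15.8% and 15.5% in PIC cells. Of 9 genes of glutathione transport, all 9 tested, 4 were higher and 1 lower after TBHQ alone, 2 higher and 3 lower with LPS (median log2FC -0.09) and 2 higher and 5 lower with PIC (median -0.22). Of these, 5 were higher in LPS + TBHQ than in LPS and 0 lower, with a median log2FC of 0.32, and 6 were higher in PIC + TBHQ than in PIC and 0 lower, with a median of 0.38 (all genes 0.00 and 0.01). *Abcc1*, an exporter of glutathione and its conjugates, had an FPKM of 14.9 to 16.5 in the control, and it rose after TBHQ alone (log2FC 1.08 ± 0.036, edgeR FDR = 7.2e-23), with LPS (1.03 ± 0.036) and with PIC (1.18 ± 0.036). It rose further with pre-treatment of LPS cells (0.47 ± 0.035) and PIC cells (0.38 ± 0.035). *Abcc3*, a related exporter, fell with PIC (-1.13 ± 0.16) and rose with pre-treatment of PIC cells (1.03 ± 0.16) and LPS cells (0.86 ± 0.15). *Abcc4* rose in both direct comparisons (0.57 ± 0.059 in LPS cells and 0.66 ± 0.060 in PIC cells). *Slc25a10*, a mitochondrial dicarboxylate carrier, rose with pre-treatment of PIC cells (0.39 ± 0.066) and LPS cells (0.32 ± 0.063). *Abcc5* rose with LPS (0.67 ± 0.050) and with PIC (1.04 ± 0.049).

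Of 13 genes of glutathione breakdown 7 were tested, and 1 of them was lower in each direct comparison, with 0 higher. *Chac2*, a slower paralogue of *Chac1*, fell with pre-treatment of PIC cells (log2FC -0.46 ± 0.14, edgeR FDR = 0.00907). *Cndp2*, a cytosolic dipeptidase, rose with LPS (0.73 ± 0.036, edgeR FDR = 8.1e-19) and PIC (1.06 ± 0.036, FDR = 6.9e-24), in a list with 2 genes higher with LPS, 3 higher with PIC and 0 lower with either. Of 12 genes for glutathione peroxidases, glutaredoxins and the glyoxalases *Hagh* and *Glo1* 9 were tested, and 0 were higher and 4 lower after TBHQ alone. Pre-treatment raised 0 and lowered 1 in LPS cells, and raised 3 and lowered 1 in PIC cells. With LPS 6 were lower and 1 higher, and with PIC 5 were lower and 2 higher. *Glrx*, which removes glutathione from protein thiols, was the exception in size: its FPKM went from 9.36 to 10.2 in the control to 42.3 to 45.3 with LPS (log2FC 2.14 ± 0.052) and 48.1 to 53.8 with PIC (2.38 ± 0.052). It fell with pre-treatment by 0.57 on the log2 scale in LPS cells (-0.57 ± 0.047) and in PIC cells (-0.57 ± 0.046). *Gpx4*, the phospholipid hydroperoxide peroxidase, fell after TBHQ alone (-0.29 ± 0.043) and rose slightly with pre-treatment of PIC cells (0.19 ± 0.045), as did *Glrx5* (0.24 ± 0.061), and *Gpx1* fell with LPS (-0.49 ± 0.077).

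*Slc3a2* also pairs with other light chains, of which 5 were listed and 4 tested. With LPS 3 of the 4 were higher and 0 lower, and with PIC 2 were higher and 1 lower. *Slc7a7* rose with LPS (log2FC 0.86 ± 0.11, edgeR FDR = 3.3e-08) and PIC (1.23 ± 0.11, FDR = 1.8e-12), and *Slc7a8* rose as well (0.66 ± 0.058 and 1.05 ± 0.056). Pre-treatment lowered *Slc7a8* in LPS cells (-0.34 ± 0.056, edgeR FDR = 1.5e-05) and PIC cells (-0.55 ± 0.054, FDR = 3.4e-10), while *Slc7a11* rose in both. *Slc7a5*, the large neutral amino acid carrier, rose after TBHQ alone (0.36 ± 0.044, edgeR FDR = 5.9e-08). *Slc7a5* had an FPKM of 44.5 to 48.4 in the control, so per length it exceeded *Slc7a11* there, and in PIC + TBHQ it had 50.2 to 50.7 and lay below it.

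A further list held 12 genes for other carriers of cystine, cysteine, glutamate and some other amino acids. Of these 8 were tested, and 6 were higher and 2 lower with PIC, with a median log2FC of 0.35. With LPS 4 were higher and 1 lower, and after TBHQ alone 3 were higher and 2 lower. Pre-treatment raised 1 and lowered 0 in LPS cells, and raised 3 and lowered 2 in PIC cells. *Slc38a1* rose with PIC (log2FC 0.95 ± 0.033, edgeR FDR = 9.2e-24). *Slc1a4*, a neutral amino acid carrier, rose after TBHQ alone (0.55 ± 0.095, edgeR FDR = 2.3e-05) and with LPS (1.12 ± 0.092, FDR = 1.1e-12). *Slc6a9*, the glycine transporter GlyT1, rose with LPS (0.86 ± 0.086) and with pre-treatment of PIC cells (0.41 ± 0.082). *Ctns*, which exports cystine from lysosomes, fell after TBHQ alone (-0.31 ± 0.078), and *Mfsd12*, which imports cysteine into them, rose with pre-treatment of PIC cells (0.33 ± 0.046). *Slc1a2* had an FPKM of at most 0.180 in any library and was called higher with PIC and lower with pre-treatment of PIC cells at that low level.

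Cysteine can also be made from methionine. Of 9 genes of the methionine cycle and transsulfuration 7 were tested, and 1 was higher and 4 lower with LPS, and 1 higher and 5 lower with PIC. The higher gene was *Cth*, which releases cysteine from cystathionine, with an FPKM of 11.7 to 12.0 in the control, 25.0 to 27.3 with LPS (log2FC 1.11 ± 0.063) and 23.5 to 26.2 with PIC (1.05 ± 0.063). After TBHQ alone *Cth* fell (-0.50 ± 0.071, edgeR FDR = 1.2e-06). *Mat2a*, which makes S-adenosylmethionine, fell with LPS (-0.52 ± 0.037) and rose with pre-treatment of LPS cells (0.22 ± 0.037) and after TBHQ alone (0.26 ± 0.036), and *Mtr* fell with PIC (-0.56 ± 0.056).

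Another list held 9 genes that use cysteine or related sulfur compounds outside glutathione. All were tested, and 2 were higher and 5 lower with LPS (24.0% and 24.1% of all genes), and 2 higher and 6 lower with PIC (28.6% and 30.1%). Pre-treatment raised 4 and lowered 0 in LPS cells (11.7% and 12.2%), and raised 5 and lowered 0 in PIC cells (15.8% and 15.5%). *Sqor*, a sulfide oxidising enzyme, rose with LPS (log2FC 1.02 ± 0.072, edgeR FDR = 1.7e-14) and PIC (1.02 ± 0.072, FDR = 9.6e-15), fell after TBHQ alone (-0.59 ± 0.081), and rose with pre-treatment of LPS cells (0.31 ± 0.065). *Ethe1* (0.57 ± 0.14), *Ado* (0.49 ± 0.062) and *Mpst* (0.42 ± 0.12) rose with pre-treatment of PIC cells, and *Suox* fell with PIC (-1.28 ± 0.21).

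Of 9 genes that supply glutamate, serine and glycine 8 were tested, and 5 were higher and 1 lower after TBHQ alone. Pre-treatment raised 3 and lowered 0 in each stimulus, with medians of 0.09 and 0.03. The changes were small: with pre-treatment *Psat1* rose by 0.11 ± 0.031 on the log2 scale in LPS cells, and *Phgdh*, the entry enzyme of serine synthesis, by 0.20 ± 0.042 in PIC cells. *Glul* (0.38 ± 0.064) and *Shmt2* (0.24 ± 0.039) rose after TBHQ alone. With the stimuli *Psph* rose (0.61 ± 0.054 with LPS and 0.45 ± 0.055 with PIC) and *Shmt1* fell (-0.38 ± 0.075 and -0.61 ± 0.076).

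Of 14 Nrf2 targets outside glutathione synthesis, all tested, 13 were higher and 0 lower after TBHQ alone, with a median log2FC of 0.71. With LPS 11 were higher and 2 lower (median 0.46), and in PIC cells 9 were higher and 3 lower (median 0.57), both against the control. In both direct comparisons 13 were higher and 1 was lower, with medians of 0.59 in LPS cells and 0.52 in PIC cells. *Cbr3*, a carbonyl reductase, rose with pre-treatment by a log2FC of 1.24 ± 0.10 in LPS cells (edgeR FDR = 3.4e-12) and 1.47 ± 0.11 in PIC cells (FDR = 1.3e-13). *Prdx1*, a peroxiredoxin, rose with pre-treatment of LPS cells (0.90 ± 0.031) and *Osgin1* with that of PIC cells (1.01 ± 0.096). Both were also higher with pre-treatment in the other stimulus. The mean FPKM of *Prdx1* was 1152.4 with PIC and 1813.2 in PIC + TBHQ, and that of *Osgin1* was 4.64 with LPS and 8.05 in LPS + TBHQ. Against the control *Prdx1* rose with PIC (1.71 ± 0.031). *Nqo1* was near the limit of detection in the control, with an FPKM of 0.0419 to 0.191, and had 0.793 to 1.25 after TBHQ alone, 0.224 to 0.810 with LPS, overlapping with TBHQ alone, 0.190 to 0.283 with PIC, 1.12 to 1.65 in LPS + TBHQ and 1.24 to 1.76 in PIC + TBHQ. *Hmox1*, the inducible haem oxygenase, rose after TBHQ alone (2.09 ± 0.037), with LPS (2.33 ± 0.037) and with PIC (2.57 ± 0.037), to an FPKM of 797.0 to 865.6 after TBHQ alone and 1126.1 to 1213.0 with PIC. It was the gene that pre-treatment lowered, to 783.5 to 825.8 in LPS + TBHQ from 948.2 to 1023.9 with LPS (log2FC -0.30 ± 0.035, edgeR FDR = 2.0e-08), and to 1018.7 to 1037.9 in PIC + TBHQ (-0.16 ± 0.035, FDR = 2.9e-04).

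Of 15 genes of ATF4 and its targets 14 were tested, and 13 were higher and 0 lower with LPS (24.0% and 24.1% of all genes), and 14 higher and 0 lower with PIC (28.6% and 30.1%), with medians of 0.76 and 0.93. After TBHQ alone 4 were higher and 7 lower (14.2% and 14.8%). Pre-treatment lowered 10 and raised 1 in LPS cells (12.2% and 11.7%), and lowered 8 and raised 2 in PIC cells (15.5% and 15.8%), with medians of -0.31 and -0.24. *Ddit4*, an inhibitor of mTORC1, rose with LPS (log2FC 2.77 ± 0.11, edgeR FDR = 7.8e-22) and PIC (3.01 ± 0.11, FDR = 1.7e-23) and fell with pre-treatment (-1.38 ± 0.092 in LPS cells and -1.02 ± 0.087 in PIC cells). *Nupr1* fell with pre-treatment too (-0.71 ± 0.065 and -0.75 ± 0.063), as did *Stc2* in LPS cells (-0.72 ± 0.19) and *Atf3* in PIC cells (-0.79 ± 0.039). *Sesn2* rose with LPS (1.51 ± 0.053) and PIC (1.82 ± 0.052). *Ddit3*, which encodes the stress factor CHOP, fell after TBHQ alone (-1.29 ± 0.048) from an FPKM of 69.4 to 73.3 to 28.8 to 30.1, as did *Stc2* (-1.14 ± 0.22). *Chac1*, a gene often counted with these targets, had an FPKM of 20.003 to 21.132 in LPS + TBHQ.

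Of the 7 genes for Nrf2 and its partners, 3 were higher and 3 lower after TBHQ alone. With LPS 3 were higher and 2 lower, and with PIC 4 were higher and 2 lower. Pre-treatment raised 2 and lowered 1 in LPS cells, and raised 4 and lowered 1 in PIC cells. *Nfe2l2*, the gene for Nrf2, had an FPKM of 37.7 to 39.4 in the control and 34.5 to 35.8 after TBHQ alone. *Mafg* (log2FC 0.60 ± 0.044, edgeR FDR = 3.6e-13) and *Bach1*, a repressor at the same sites (0.50 ± 0.055, FDR = 5.8e-09), rose after TBHQ alone, and *Bach1* rose with pre-treatment of LPS cells (0.35 ± 0.056) and PIC cells (0.29 ± 0.057). *Maff* rose with LPS (2.24 ± 0.12) and PIC (3.08 ± 0.11) and fell with pre-treatment (-0.47 ± 0.096 and -0.48 ± 0.086). *Nfe2l1* rose with LPS (0.56 ± 0.032), *Mafg* rose with PIC (0.55 ± 0.044), and *Keap1*, which holds Nrf2 back, rose with pre-treatment of PIC cells (0.29 ± 0.054).

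The genes most alike in profile were sought among 10451 tested genes with a mean of at least 50 counts, by the Pearson correlation of mean log2 CPM over the 6 groups. The 6 points are few and the genes many, so high values are frequent and are given as a description. Nearest to *Slc7a11* were *Layn*, *Msantd3* and *Fhip2b* (each r = 0.991), *Aspscr1* (0.989) and *Slc22a4* (0.987). Nearest to *Slc3a2* were *Pafah2* (0.999), *Qsox1* (0.996), *Tnks1bp1* (0.994), *B4galt7* (0.993) and *Sqor* (0.992). The profile of *Gclc*, with its peak after TBHQ alone, was shared by *Utp25* (1.000), *Kansl2* and *Pdzd8* (0.996) and *Llgl1* and *Pdp2* (0.995). For *Gclm* they were *Epn2* (0.993), *Cyb5a* and *Sec24d* (0.988), *Smarcd3* (0.984) and *Pcnx3* (0.982), and for *Gsr* they were *Pgd*, an enzyme that makes NADPH (0.994), *Slc25a12* (0.988) and *Cyb5a* and *Piwil2* (0.986). *Cyb5a* was thus near to both. *Chac1* was nearest to *Sntb2* (0.999), *Asns*, the asparagine synthetase (0.998), *Ubr2* and *Gars* (0.997) and *Trem3* (0.995), and *Gss* to *Afp* (0.999), *Retreg1* (0.990), *Tbc1d1* (0.988), *Adcy2* (0.986) and *Gtf2h1* (0.984). Among the 7 genes themselves r was 0.98 between *Gclm* and *Gsr*, 0.96 between *Slc3a2* and *Chac1*, and -0.55 between *Slc3a2* and *Gclc*.

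Promoter sequences were matched for 5 of the 7 genes, *Slc7a11*, *Slc3a2*, *Gclm*, *Gss* and *Chac1*, and not for *Gclc* and *Gsr*. They come from RefSeq on build GRCm38.p6 and span 250 bases before to 50 after the start listed there. Since these genes moved in part with TBHQ and in part with the stimuli, both strands were searched for the core of the antioxidant response element, TGACNNNGC, and the core of the C/EBP-ATF response element, TGATGNAA. The first is in 12.4% and the second in 3.97% of all 32851 promoters of this length. *Gclm* had 1 match of the first core, and *Slc7a11* had 2 and *Chac1* 1 of the second, while *Gss* had neither. The *Slc3a2* window, at chr19:8713848-8714147, had neither as well, but it lies inside the GRCm38 span of the gene (chr19:8706882-8723369, minus strand), so the outer start of *Slc3a2* was not searched. A match describes the letters in this window and does not show that a factor binds there, and longer distances were not searched. The 250 bases upstream of the start are shown for the 3 genes with a match, 5′ to 3′ on the strand of the gene, with the match in capitals.

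The *Slc7a11* sequence lies at chr3:50443614-50443863 on the minus strand, and its matches lie 66 to 59 and 47 to 40 bases before the start, 1 on each strand. That of *Gclm* lies at chr3:122245307-122245556 on the plus strand, with the match 134 to 126 bases before the start, on the reverse strand. That of *Chac1* lies at chr2:119350992-119351241 on the plus strand, with the match 193 to 186 bases before the start, also on the reverse strand.
Slc7a11: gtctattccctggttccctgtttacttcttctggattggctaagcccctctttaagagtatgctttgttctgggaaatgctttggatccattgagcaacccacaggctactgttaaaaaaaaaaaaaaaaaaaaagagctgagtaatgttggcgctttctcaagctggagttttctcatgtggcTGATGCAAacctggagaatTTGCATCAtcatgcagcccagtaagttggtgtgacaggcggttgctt
Gclm: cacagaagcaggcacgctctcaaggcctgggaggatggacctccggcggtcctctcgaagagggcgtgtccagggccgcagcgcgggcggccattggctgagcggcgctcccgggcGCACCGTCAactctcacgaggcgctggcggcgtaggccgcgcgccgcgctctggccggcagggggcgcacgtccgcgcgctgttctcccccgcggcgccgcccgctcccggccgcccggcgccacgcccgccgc
Chac1: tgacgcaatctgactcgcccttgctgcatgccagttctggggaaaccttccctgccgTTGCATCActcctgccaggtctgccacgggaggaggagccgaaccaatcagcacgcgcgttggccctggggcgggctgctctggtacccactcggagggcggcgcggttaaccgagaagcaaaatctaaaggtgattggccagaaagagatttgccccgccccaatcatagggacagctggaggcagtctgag

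The positions of whole genes above are those of the deposited table, whose notes name both GRCm38 and mm39. They differ from the GRCm38 annotation for all 7 genes, so they are not to be set against the promoter positions. Of the transcript sequence of the 7 genes, cut into words of 50 bases, 3.92% of the *Gclm* words, 3.42% of the *Slc3a2* words and 0.618% of the *Slc7a11* words occur in another gene, and 0% of those of the other 4.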

How the data were processed

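RNA-seq was analysed from 18 libraries of RAW264.7 cells, 3 for each of 6 groups. Per the labels, reads were aligned with HISAT2 2.0.5, assembled with StringTie 1.3.3b and counted with featureCounts 1.5.0-p3. The authors deposited raw counts per gene, with no normalization. The authors also deposited FPKM values, which equal FPKM recomputed from the counts, listed gene length and library total, times 1 constant per library (0.943 to 1.12).

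Counts were tested in edgeR 4.0.16 (R 4.3.3) with filterByExpr, TMM, glmQLFit and glmQLFTest over all 18 libraries with 1 coefficient per group. The common dispersion was 0.00192. P-values were adjusted over 13691 genes, and the limit was an FDR below 0.05. Standard errors are |log2FC| divided by the root of F, and intervals are at 95%. The scripts were checked on simulated data. Tables were read with Python 3.11.15 and pandas 2.3.3, and figures were drawn with matplotlib 3.10.9. Cells given TBHQ alone were collected at 4 h and stimulated cells 12 h after the stimulus, and the study places the control in its 12 h design, so harvest time and TBHQ cannot be told apart in the comparison of TBHQ alone with the control.

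The 7 genes and the companion lists were chosen with earlier results of these data known. Companion genes were named by size: in each list up to 3 genes with the largest |log2FC| among those with an FDR below 0.05 and no overlap between libraries in each direct comparison, and up to 2 in TBHQ, LPS and PIC against the control. This gave 115 pairs of gene and comparison. After the values were seen, 19 pairs that lost the call in at least 1 alternative other than a stricter threshold were left to the counts, and 96 remained. The values of *Acss2*, *Hmox1* and *Slc38a1* in the direct comparisons, and the FPKM of *Slc7a5* and *Chac1* beside lists were named after their values were seen. So were *Abcc1* with pre-treatment of PIC cells, *Slc25a10* with that of LPS cells, *Abcc5* with PIC, and the mean FPKM of *Prdx1* and *Osgin1*. The FPKM of *Nfe2l2* was also named after its values were seen. Profiles were compared on log2 CPM with a prior count of 2.

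Alternatives were DESeq2 1.42.0, edgeR on the compared groups only, RLE factors or total library size, no low-count filter, a mean of at least 50 counts, an FDR below 0.01 with or without a |log2FC| above 2, the replicate number as a block, limma 3.58.1 on log2(FPKM + 1) and log2(FPKM + 0.1) with a mean FPKM of at least 1, each library left out in turn, TMM CPM per kilobase in place of FPKM, and, added after the results were seen, counts divided by library totals for the order of groups.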

Additional observations from a re-analysis of the deposited data

Results flagged for a closer look

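The log2FC after TBHQ pre-treatment differed between PIC and LPS cells, in a test of the difference itself (edgeR, FDR below 0.05), for 113 genes in the higher and 138 in the lower direction (0.825% and 1.01% of all genes tested). Among them were *Slc7a11* and 6 genes of the companion lists. *Slc7a11*, the cystine transporter subunit, had a difference of -0.31 ± 0.050 (SE, PIC minus LPS, edgeR FDR = 2.0e-04), which is a smaller rise in PIC cells. The same sign was found for *Prdx1* (-0.24 ± 0.043, edgeR FDR = 7.7e-04), *Slc38a1* (-0.27 ± 0.046, FDR = 4.8e-04), *Mat2a* (-0.21 ± 0.053, FDR = 0.0309) and *Atf3* (-0.21 ± 0.056, FDR = 0.0423). *Prdx1* rose less in PIC cells, *Mat2a* rose in LPS cells only, and *Atf3* fell more in PIC cells. *Slc38a1* fell with pre-treatment of PIC cells (log2FC -0.20 ± 0.032, edgeR FDR = 5.9e-06) and was not called in LPS cells (0.07 ± 0.033, FDR = 0.159). The opposite sign was found for *Ddit3* (0.29 ± 0.062, edgeR FDR = 0.00702) and *Keap1* (0.31 ± 0.076, FDR = 0.0215). Unlike the 96 pairs of gene and comparison named by size, the calls of the 6 genes in this difference were not checked gene by gene under the alternatives. The calls of *Acss2* and of companion genes that were named after their values were seen were not checked in this way either.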

How the results depend on the processing

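The counts of the 7 genes called higher and lower were the same with DESeq2, RLE factors and the compared groups only. With the replicate block, in which replicate numbers enter as a factor, they were also the same in each comparison (4 higher and 1 lower after TBHQ alone), and all genes called higher after TBHQ went from 1943 to 1980. The numbers were not taken as pairs, since in 0 of 8 comparisons did every same-numbered pair of deviations correlate above 0.1 (-0.061 to 0.101). Still, 11 of 18 libraries were closest to their own number, so a weak link between same-numbered libraries remains possible. With total library size, 1 gene was lower with PIC and 5 with PIC against LPS. Over all genes that scaling gave 2379 higher and 6635 lower with PIC (3917 and 4120 with TMM), 2364 and 5515 in PIC + TBHQ against the control (3615 and 3563), 985 and 4373 for PIC against LPS (2035 and 1752), and 3398 higher for PIC + TBHQ against PIC (2167). For the difference between stimuli (113 higher and 138 lower) it gave 235 and 74, while DESeq2 gave 241 lower, no low-count filter 237 lower, and limma 69 (pseudocount 1) and 72 (0.1) higher. Leave-one-out fits gave 72 to 115 higher and 86 to 239 lower there. When a |log2FC| above 2 was required with an FDR below 0.01, the number higher was 1 with LPS, PIC, LPS + TBHQ and PIC + TBHQ against the control and 0 elsewhere, and the number lower was 0, including in the difference between stimuli. Uncalled values near 0 changed sign with total library size: *Gclc* -0.07 and *Gss* -0.06 with LPS, *Gss* -0.09 with PIC and -0.03 for PIC against LPS, *Chac1* 0.06 for PIC + TBHQ against PIC, and *Gclc* 0.00 and *Gsr* 0.01 in the difference between stimuli. The leave-one-out range crossed or touched 0 for *Gss* after TBHQ (-0.07 to 0.04) and with LPS (-0.01 to 0.11), *Gclc* with LPS (0.00 to 0.05), *Chac1* for PIC + TBHQ against PIC (-0.04 to 0.01), *Slc3a2* (-0.07 to 0.00) and *Gsr* (-0.04 to 0.05) for PIC against LPS, and *Slc3a2* (0.00 to 0.08) and *Gclc* (-0.09 to 0.01) in the difference. Apart from the construction of the scaling and of the fold limit, the cause was not tested. The number higher in LPS + TBHQ against LPS was 5 to 6 in leave-one-out fits. The counts of the companion lists moved as well. They were recounted with DESeq2, total library size and the replicate block only. Of these recounts 526 were classed as the same, 36 as stronger and 32 as weaker, where the same allows a modest difference in number. The subunit ratios do not depend on the scaling, which cancels within a library. With TMM counts per kilobase the levels moved by less than their SD in 40 of 42 cases, the others being *Gclc* with LPS (23.1 against 23.4) and *Gss* in LPS + TBHQ (5.76 against 5.82). With 335 counts in its lowest library, *Gss* had wider intervals than *Slc7a11* with 2042. The order or overlap of the groups by FPKM was kept in 104 of 105 pairs of groups of the 7 genes with TMM counts, and in 87 of 105 with counts divided by library totals, an alternative added after the results were seen. The pairs that moved there set the control or TBHQ alone against other groups, LPS cells against PIC cells, or *Chac1* between stimulated groups.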
